A study of Mus musculus with 5480 samples.

Results

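Airway and vascular smooth muscle cells of the mouse lung were compared at postnatal day 21 (P21) in normal air. The members were all cells whose subtype label named either class at that age, 113 airway and 52 vascular smooth muscle cells, which are 165 of the 5480 cells in the series and of the 835 cells at P21. They came from 1 female mouse, with 58 airway and 33 vascular cells, and 1 male mouse, with 55 and 19. A further 6 cells at P21 labelled early airway smooth muscle do not belong to the comparison. The study had sorted mesenchymal cells, the connective tissue, muscle and vessel wall cells, from distal lung and sequenced them one by one on plates, in 10 mice from late gestation to P21 and at P7 in hyperoxia. Strain and genotype of the mice are not given in the sources used here. The same comparison was made at P7 in normal air, between 139 cells labelled early airway smooth muscle and 58 vascular smooth muscle cells of another female and another male. The fit over ages also held mice at P1 and mice at P7 in hyperoxia.

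Airway smooth muscle wraps the bronchi and narrows them when acetylcholine reaches its muscarinic receptors. Vascular smooth muscle surrounds arteries and veins, sets their width in answer to nitric oxide, endothelin and adrenergic signals, and depends on Notch signals from the endothelium. Both contract through smooth muscle actin and myosin, whose genes are driven by serum response factor and myocardin. Hhip, a membrane protein that binds and restrains hedgehog ligands, marks mesenchyme near the hedgehog-producing airway epithelium.

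Reads were summed over the cells of a class in each mouse, and the 4 libraries held 51077950 (airway, female), 44910288 (airway, male), 21933580 (vascular, female) and 20677737 reads (vascular, male). Levels below are CPM, the reads of a gene scaled to a common library size after normalisation between libraries. Summed markers and values of single cells are total-read CPM, scaled by all reads of the library or cell without that normalisation. Differences are fitted log2 values, airway minus vascular. The mouse was the replicate, so n = 2 per class, 1 of each sex, and both classes of a mouse shared a sequencing run and, but for 1 female vascular cell from a CD31 sort, 2 plates. Single cells held a median of 607642 to 1182840 reads in the 4 libraries. Whether the subtype labels had been made from the same reads is not given in the sources used here, and differences between labels may in part repeat what defined them.

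The labels were first set against marker genes. Hhip stood at 5094 CPM in the female and 5758 CPM in the male airway library and at 0.0433 and 0 CPM in the vascular ones. It had a read in 56 of 58 and 53 of 55 airway-labelled cells, against 1 of 33 and 0 of 19 vascular-labelled cells. The vessel wall receptor Notch3 had a read in 26 of 33 and 15 of 19 vascular cells and in 3 of 58 and 0 of 55 airway cells. Hhip thus marked nearly every airway-labelled cell, and Notch3 most vascular cells, with 11 of 52 lacking a read. The smooth muscle part of the airway label was not matched in the same way. Summed over 7 smooth muscle markers (Acta2, Myh11, Tagln, Cnn1, Lmod1, Des and Mylk), the airway libraries held 2388 and 3031 total-read CPM, the vascular ones 18760 and 23600, pericytes 1039 and 1316, alveolar fibroblasts 1064 and 1117, and adventitial fibroblasts 242 and 364. Mylk alone gave 868 and 849 of the alveolar sum, and Acta2 stood there at 57.3 and 128 against 1415 and 1989 in the airway libraries. The airway class at P21 is for that reason called airway-labelled or Hhip-high below. Of the airway marker list, the muscarinic receptor Chrm2 was read in 20 of 58 and 10 of 55 airway cells and in none of the 52 vascular cells. Actg2, the enteric smooth muscle actin, had its larger values in the vascular libraries, given below. Foxf1 of the same list overlapped between the classes, at 292 and 73.2 total-read CPM in the airway and 99.85 and 1.84 in the vascular libraries. Pericytes held 471 and 231 of it. The 7 listed vascular markers summed to 209.8 and 149.5 in the airway and 4092 and 2948 in the vascular libraries. In pericytes their sum was higher, 8123 and 5616. Mef2c of that list overlapped, at 91.8 and 29 in the airway and 287.5 and 26.65 in the vascular libraries.

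Markers of most cell types outside the mesenchyme were low in both classes. Of 7 endothelial markers, 5 stayed under 1 total-read CPM in all 4 libraries and Tie1 and Emcn were at 0; the exceptions were Pecam1, at 81.2 in the female vascular library and at 4.44 or less in the others, and Cldn5, at 3.65 in the same library. Summed immune markers reached at most 8.02 and epithelial markers at most 35.6 total-read CPM. The 7 striated muscle markers summed to 179 and 42.4 in the airway and 2064 and 1933 in the vascular libraries, nearly all of it from Actc1, the cardiac actin (2028 and 1927 in the vascular libraries, adjusted p = 0.124), while Nppa and Myl7 were at 0. The 5 myofibroblast markers summed to 3642 and 4719 in the airway libraries and to 523 and 1278 in the vascular ones, and the 7 adventitial fibroblast markers to 1101 and 1557 against 145 and 101. Dcn alone gave 956 and 1282 of the adventitial sum in the airway libraries, and Pi16 and Ly6a were at 0 there. In adventitial fibroblasts of the same mice the 7 markers summed to 15820 and 19980. The 7 pericyte markers ran the other way, at 160 and 71.9 in the airway and 1912 and 2288 in the vascular libraries, against 7076 and 9395 in pericytes of the same mice. The part of these marker genes of neighbouring cell types in the differences below was not tested.

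edgeR's quasi-likelihood test, fitted with the mouse as a block on the 10 libraries of 5 P21 classes and adjusted by Benjamini-Hochberg over 14437 genes, called 116 genes at an adjusted p under 0.05, which is 0.803% of those tested. Of these 42 (0.291%) were higher in the airway-labelled and 74 (0.513%) in the vascular class, and 1667 genes had an unadjusted p under 0.05. The libraries of the 2 classes did not overlap for far more genes, 21.5% of all tested with both airway values above both vascular ones and 13.8% the other way round. The median difference over all genes was 0.20. Called genes went in the same direction on all 4 plates in 99 of 116 cases, on 3 plates in 14 and on 2 in 3. The plates divide the same cells that gave the calls, so this is a description and not a replication. The share over all genes was not computed. A wider fit, called the fit over all ages here and below, held 16 libraries of 8 mice. These were mice at P1, at P7 in normal air and in hyperoxia, and at P21, with none from before birth. Without the male mouse 33 genes were called and without the female 201, both in a fit over the airway and vascular libraries of all ages, in which both mice together gave 118 calls, 57 of them among the 116.

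**Figure D1:**
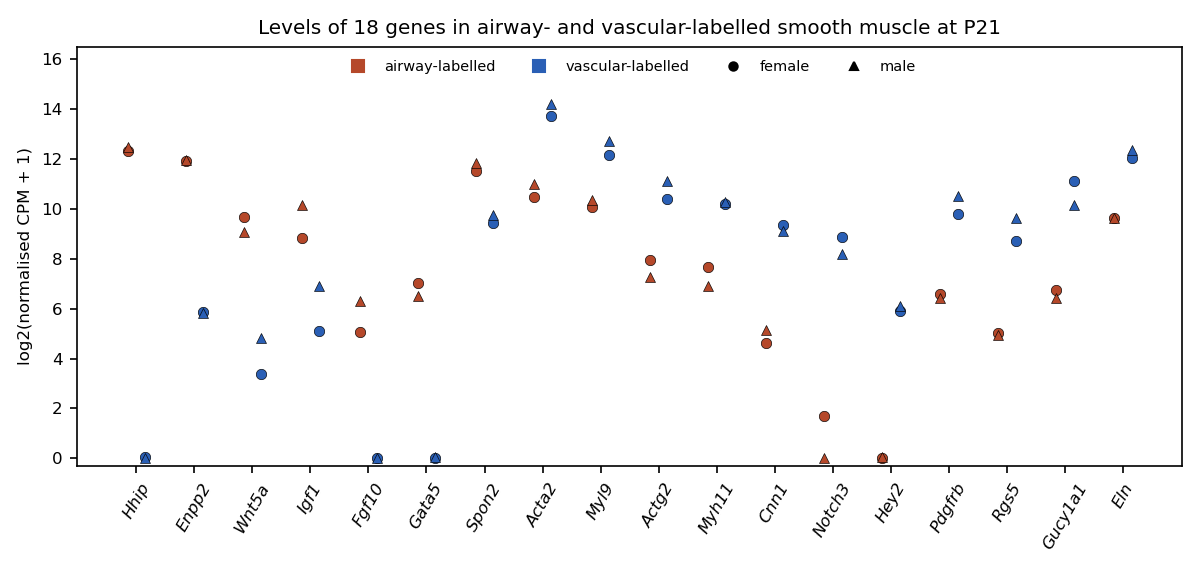
Levels of 18 genes in the 4 libraries, as log2 of normalised CPM plus 1 (vertical axis), red for airway-labelled and blue for vascular smooth muscle, circles for the female and triangles for the male. Hhip, Fgf10 and Gata5 lie near 0 in both vascular libraries, and Acta2, Myl9, Actg2, Myh11 and Cnn1 lie higher in both vascular than in both airway libraries.

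The called genes of the contractile apparatus were higher in the vascular class. All 32 listed contractile genes were tested, and 4 were called, each of them higher in vascular cells. That is 12.5% of the list, against 7.63% of the 15 lists together and 0.803% of all genes. The lists were chosen with earlier results of these data known, so the excess over all genes is no test of the list. The shares 7.63% and 0.803% are also the background of the call counts of the other lists below. For 22 members both vascular values lay above both airway values (13.8% of all genes), and for 1 the reverse (21.5%). The median difference was -1.45. Acta2, the smooth muscle alpha actin, was at 1434 CPM (female) and 2071 CPM (male) in airway-labelled and at 13559 and 19176 CPM in vascular cells. Its vascular values were above its airway values in both mice, a log2 difference of -3.23 (SE 0.348, adjusted p = 0.00694). The call held without either mouse. Myl9, the regulatory light chain of smooth muscle myosin, was at 1087 and 1299.6 CPM against 4628 and 6773 CPM (log2 -2.23, SE 0.269, adjusted p = 0.0104). Ppp1r14a, the inhibitor that protects phosphorylated myosin from its phosphatase, was at 20.6 and 26.3 CPM against 304 and 324 CPM (log2 -3.75, adjusted p = 0.0102). Flna, an actin crosslinker, was the weakest of the 4 calls, with 269.9 and 416 against 1034 and 1469 CPM (log2 -1.88, adjusted p = 0.0455), and missed the threshold in 6 of the 14 alternative fits. Filamin and myosin light chain are present in many cell types, whereas Acta2 is the classical contractile marker.

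Other contractile genes had the same order without passing the test. Actg2 stood at 246 and 152 CPM in airway-labelled and at 1356 and 2239 CPM in vascular cells (adjusted p = 0.106). Myh11, the smooth muscle myosin heavy chain, stood at 206 and 121 against 1187 and 1231 CPM (adjusted p = 0.519), and the actin-binding calponin Cnn1 at 23.9 and 34.6 against 651 and 562 CPM (adjusted p = 0.349). In these 3 genes both vascular values lay above both airway values. Tagln was at 167 and 162 against 720.1 and 781 CPM (adjusted p = 0.0766) and Mylk, the kinase that starts contraction, at 346 and 475 against 925 and 1572 CPM (adjusted p = 0.0775). In the fit over the airway and vascular libraries of all ages 11 contractile genes were called at P21, all higher in vascular cells, among them Actg2 (adjusted p = 0.0168), Myh11 (0.0111), Cnn1 (0.0191), Tagln (0.0278) and Mylk (0.0321). A few members did not follow: Pdlim3, a protein of actin-rich junctions, was at 454 and 719.7 against 185 and 49.2 CPM (adjusted p = 0.594), and Mustn1 at 2198 and 4525 against 1342 and 3145 CPM (adjusted p = 0.927). The actin genes are nearly identical in their coding parts, and how reads shared between them were counted is not given in the sources used here.

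In single cells the levels of Acta2 differed across most of each class. Acta2 had a read in 45 of 58 airway-labelled cells of the female (77.6%, 95% Wilson interval 65.3% to 86.4%) and in 38 of 55 of the male (69.1%, 56.0% to 79.7%), against 33 of 33 and 18 of 19 vascular cells. After thinning each cell to 100000 reads, which left out 1 cell of each of 2 libraries, the shares were 74.1% and 68.5% against 100% and 94.7%. Its median per cell was 896 and 1352 total-read CPM in airway-labelled and 10440 and 12660 in vascular cells. At or above 10000 total-read CPM were 0 of 58 and 1 of 55 airway-labelled and 18 of 33 and 12 of 19 vascular cells. Of the 7 smooth muscle markers the median airway-labelled cell had a read of 4 in the female and of 3 in the male, and the median vascular cell of 6 and 5. Genes detected per thinned cell, at medians of 1894 and 1735 in airway-labelled and 2067.5 and 1483 in vascular cells, overlapped between the classes. The intervals of shares cover counting error over the cells of 1 mouse and not the spread between mice.

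The promoters of a leading airway gene and of called contractile and Notch target genes are shown because these are the genes that separate the classes. Each is the 250 bases before the RefSeq transcription start in GRCm38.p6, on the strand of the gene: Hhip at chr8:80058009-80058258 on the minus strand, Acta2 at chr19:34255374-34255623 on the minus strand, Myl9 at chr2:156775214-156775463 on the plus strand and Hey2 at chr10:30842784-30843033 on the minus strand. Capitals mark the CArG box, the binding sequence of serum response factor, in Myl9, and the core TGGGAA of the sequence bound by the Notch effector RBPJ, read on either strand, in Acta2 and Hey2.
Hhip: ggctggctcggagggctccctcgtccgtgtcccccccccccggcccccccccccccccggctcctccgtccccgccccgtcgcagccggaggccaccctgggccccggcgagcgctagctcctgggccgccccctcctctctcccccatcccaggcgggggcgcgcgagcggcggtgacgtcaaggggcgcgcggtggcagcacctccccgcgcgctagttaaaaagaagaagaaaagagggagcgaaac
Acta2: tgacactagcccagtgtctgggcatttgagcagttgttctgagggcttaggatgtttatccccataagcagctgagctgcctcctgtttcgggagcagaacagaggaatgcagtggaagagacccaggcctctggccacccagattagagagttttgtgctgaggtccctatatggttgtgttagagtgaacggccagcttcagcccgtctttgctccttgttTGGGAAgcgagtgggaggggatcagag
Myl9: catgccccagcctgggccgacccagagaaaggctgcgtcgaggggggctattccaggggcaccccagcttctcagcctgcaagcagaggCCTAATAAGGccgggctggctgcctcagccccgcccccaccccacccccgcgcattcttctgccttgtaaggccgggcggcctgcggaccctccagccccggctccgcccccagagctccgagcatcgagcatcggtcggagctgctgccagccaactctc
Hey2: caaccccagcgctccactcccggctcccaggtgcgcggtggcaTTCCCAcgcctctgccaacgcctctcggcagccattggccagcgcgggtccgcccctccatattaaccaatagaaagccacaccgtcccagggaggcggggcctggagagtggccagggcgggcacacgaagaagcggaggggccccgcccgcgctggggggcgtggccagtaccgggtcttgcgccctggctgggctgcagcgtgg
In this window a CArG box began 161 bases before the start of Myl9, and 4 of the 27 contractile genes with a listed promoter held one (14.8%), against 156 of 10812 genes tested (1.44%). The RBPJ core lay 27 bases before the start of Acta2 and 207 before that of Hey2. It occurred in 4 of 14 Notch pathway promoters (28.6%), 7 of 31 genes called higher in airway-labelled cells (22.6%), 19 of 52 called higher in vascular cells (36.5%) and 2611 of 10812 genes tested (24.1%). CArG boxes occurred in 0 of the 31 and 3 of the 52 (Cnn2, Myl9 and Trpc6). The CArG box was searched in its strict form, with only A or T between the C and G pairs. Near matches were not searched across genes, so a gene without a match here may hold a CArG element. The printed Acta2 sequence holds ccctatatgg and ccttgttTGG, each off the strict form in a single base. The latter overlaps the capitalised RBPJ core. Near matches in other genes may also overlap such a core. A match is a description of letters, not a binding site.

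Of the 42 genes called towards the airway-labelled class 5 belonged to the hedgehog, Wnt and growth factor lists. Hhip had 505109 reads in the airway and 1 read in the vascular libraries (log2 17.73, SE 0.814, adjusted p = 0.00014), a ratio of levels of 234012 (95% counting interval 42000.3 to 9243000.0). A counting interval treats reads as independent draws and covers neither the spread between cells nor that between mice. Hhip was also at 73.4 and 92.4 CPM in alveolar and at 122 and 195 CPM in adventitial fibroblasts of the same mice. The call had an adjusted p of 0.0509 without the male mouse. It was the single call among 12 tested hedgehog genes. The co-receptor Boc was at 113 and 162 CPM against 23.2 and 36.1 CPM (adjusted p = 0.169), and the receptor and target gene Ptch1, at 48.6 and 52.2 against 80.1 and 3.31 CPM, overlapped between the classes (adjusted p = 0.852).

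Of 33 tested Wnt pathway genes 2 were called higher in airway-labelled and 1 in vascular cells. The classes did not overlap for 15 towards the airway side and 3 towards the vascular, against 21.5% and 13.8% of all genes. Wnt5a, a non-canonical Wnt ligand, was at 817 and 540.3 CPM against 9.43 and 27.1 CPM (log2 5.18, SE 0.714, adjusted p = 0.0189). It was read in 49 of 58 and 39 of 55 airway-labelled cells but in only 1 of 33 and 2 of 19 vascular cells. Wif1, a secreted Wnt inhibitor, was at 53.3 and 119.9 against 0 and 0.0494 CPM (adjusted p = 0.0322), yet its reads came from 4 and 8 airway-labelled cells. It was called in 8 of the 12 alternatives that keep both mice. The R-spondin receptor Lgr5 was at 129 and 61 against 0.13 and 0.0989 CPM and just missed the threshold (adjusted p = 0.0508). Its relative Lgr6, read in 30 of 58 and 28 of 55 airway-labelled cells, was at 115 and 185 against 38.2 and 0.297 CPM (adjusted p = 0.652). Wnt4 ran the other way, with 0 and 0.0232 against 53.8 and 16 CPM (log2 -11.23, adjusted p = 0.0109), and rested on 4 and 1 vascular cells.

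Of 29 tested growth factor, receptor and IGF binding protein genes 2 were called higher in airway-labelled cells, Igf1 and Fgf10, and 1 in vascular cells, Pdgfrb. Igf1, insulin-like growth factor 1, was at 454 and 1129.9 CPM against 33.2 and 119 CPM (log2 3.51, SE 0.516, adjusted p = 0.0232). Fgf10, a ligand that drives growth of lung epithelium, was at 32.3 and 78.7 CPM against 0 in both vascular libraries (adjusted p = 0.0409), at least 776-fold higher when 3 reads over the vascular class are taken as the floor. It was read in 13 and 11 airway-labelled cells and stood at 156 and 167 CPM in alveolar fibroblasts. Pdgfrb, the PDGF receptor of mural cells, was at 95.4 and 84.8 against 894 and 1452 CPM (log2 -3.77, SE 0.543, adjusted p = 0.0226), and at 2809 and 1849 CPM in pericytes. Igfbp3, at 1341 and 2589.7 against 159 and 248 CPM, had an adjusted p of 0.089. In the BMP and TGF-beta list of 38 tested genes the BMP family member Gdf10 was the single call (53.9 and 47.1 against 0.649 and 1.04 CPM, log2 5.91, adjusted p = 0.0294). Gdf10 was called in only 7 of the 12 alternative fits that keep both mice. In that list 12 genes did not overlap towards the airway and 11 towards the vascular side, against 21.5% and 13.8% of all genes.

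Of 17 tested members of the Notch pathway list 9 had both vascular values above both airway values, against 13.8% of all genes. For 1 member the reverse held, against 21.5% of all genes. The median difference was -0.93, and 1 member was called. Hey2, a transcriptional repressor induced by Notch, was at 0.0198 and 0.0464 CPM in airway-labelled and at 58.5 and 68.1 CPM in vascular cells (adjusted p = 0.036), a ratio of levels of 1963 (95% counting interval 671 to 9527). That interval, too, does not cover the spread between cells or mice. The promoter of Hey2 is among those printed above. Notch3 itself was at 2.22 and 0 CPM against 465 and 291 CPM (log2 -10.44, SE 2.13, adjusted p = 0.0822), and was called in the fit over the libraries of all ages (adjusted p = 0.0243). The target Heyl was at 0.556 and 20.8 against 747 and 694 CPM and the ligand Jag1 at 0.159 and 0 against 73.7 and 60.1 CPM, each with an adjusted p of 0.112. Notch3 was higher still in pericytes, at 833 and 614 CPM.

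Among 43 tested transcription factors 1 was called higher in airway-labelled and 2 in vascular cells. Gata5, a zinc finger factor of mesoderm and endoderm, was at 131 and 89 CPM against 0 and 0.0494 CPM (log2 12.02, SE 1.75, adjusted p = 0.0232) and was read in 22 of 58 and 14 of 55 airway-labelled cells. Epas1, the hypoxia-inducible factor 2 alpha, was at 7.4 and 41 against 431 and 652 CPM (log2 -4.60, adjusted p = 0.0433), and Hey2 was the third. The drivers of the contractile genes did not pass the test. Myocd, myocardin, was at 190.0 and 144 CPM in airway-labelled and 402 and 203 CPM in vascular cells (log2 -0.78, SE 1.08, adjusted p = 0.814), and at 1.87 CPM or less in pericytes and fibroblasts. Srf, serum response factor, was at 24 and 17.9 against 5.24 and 37.5 CPM (adjusted p = 1).

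**Figure D2:**
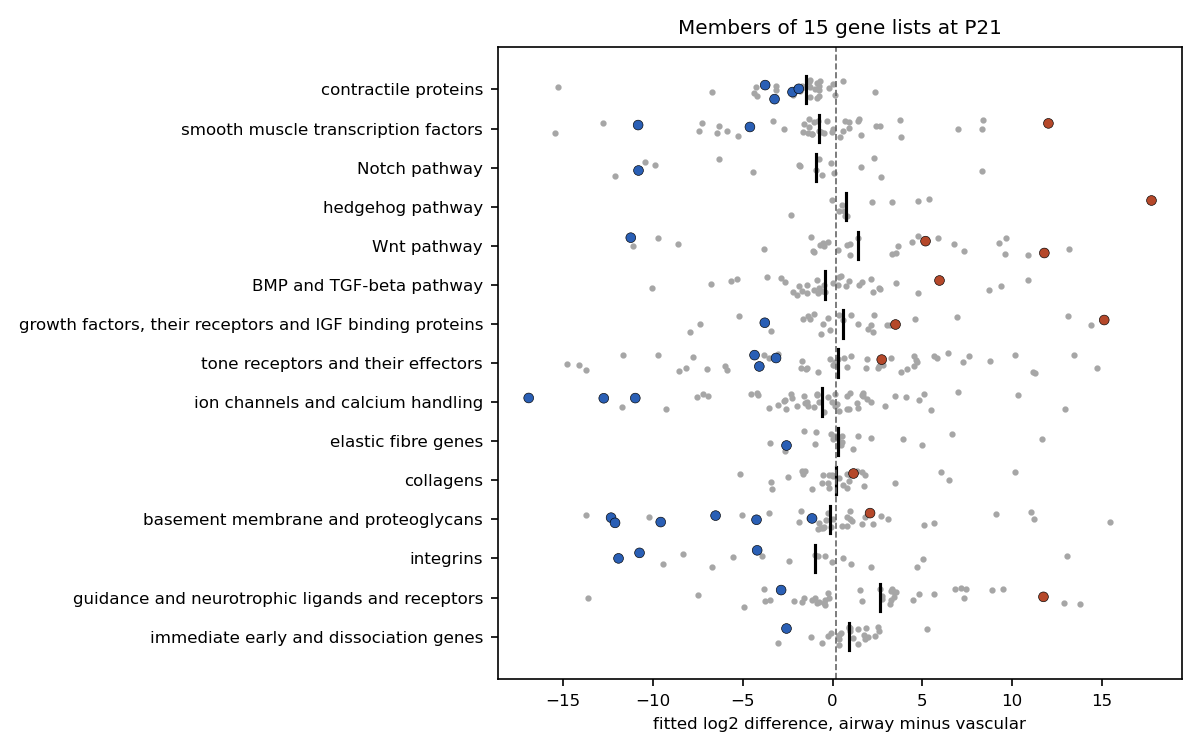
Fitted log2 difference, airway minus vascular (horizontal axis), of every tested member of 15 gene lists; grey points did not pass the test, red points were called higher in airway-labelled and blue points in vascular cells. Black bars are list medians and the dashed line is the median of all 14437 genes, 0.20; the contractile list lies to the left of it, at -1.45.

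Receptors and effectors of muscle tone gave 1 airway and 3 vascular calls among 55 tested genes. That is 7.27% of the list, against 7.63% of the 15 lists together and 0.803% of all genes. In this list 21 genes did not overlap towards the airway and 15 towards the vascular side, against 21.5% and 13.8% of all genes. Its median difference was 0.33. Both subunits of soluble guanylate cyclase, the nitric oxide sensor, were higher in vascular cells. Gucy1a1 was at 107 and 84.2 CPM against 2225 and 1149 CPM (log2 -4.08, SE 0.617, adjusted p = 0.0261), a call that held in all 14 alternatives. Gucy1b1 was at 32.4 and 18.3 against 366 and 123 CPM (log2 -3.14, adjusted p = 0.0455), and was called in 8 of the 12 alternatives that keep both mice. Rgs5, a brake on G protein signals known from vessel walls, was at 31.3 and 29.6 against 425 and 793 CPM (log2 -4.34, adjusted p = 0.0232). Pericytes of the same mice held 7628 and 7705 CPM of Gucy1a1 and 57.6 and 46.4 CPM of Rgs5. Pde4b, a phosphodiesterase that degrades cyclic AMP, was the airway call, at 1689 and 1548 against 239 and 248 CPM (log2 2.74, SE 0.396, adjusted p = 0.0229).

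Muscarinic receptors were sparse. Chrm2 was at 67.7 and 30.3 CPM in airway-labelled cells and 0 in both vascular libraries (adjusted p = 0.201), and Chrm3, the receptor best known for bronchoconstriction, was at 0.198 and 1.39 CPM, read in 1 and 3 cells. The endothelin receptor Ednra was at 885 and 315 CPM in airway-labelled and 969 and 334 CPM in vascular cells. In each mouse the 2 classes lay within 10% of one another for Ednra, and the difference was -0.11 (SE 0.455, adjusted p = 0.963). Rgs2, another G protein brake, was at 3416 and 5384 against 596 and 853 CPM (adjusted p = 0.0699).

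Ion channel and calcium genes gave 3 calls among 54, all towards the vascular class. That is 5.56% of the list, against 7.63% of the 15 lists together and 0.803% of all genes. In this list 10 genes did not overlap towards the airway and 16 towards the vascular side, against 21.5% and 13.8% of all genes. The gap junction protein Gja4 was at 0 in both airway libraries and at 502 and 20.4 CPM in the vascular ones (adjusted p = 0.0226), in 9 of 33 and 2 of 19 cells. The calcium-activated chloride channel Ano1 was at 0.0595 and 0 against 179 and 367 CPM (adjusted p = 0.0232), in 19 of 33 and 13 of 19 vascular cells. The cation channel Trpc6 was at 0.0198 and 0.0232 against 74.6 and 25.9 CPM (adjusted p = 0.00407). Trpc6 is also a pericyte marker, at 895 and 623 CPM there, and its vascular reads came from 7 and 2 cells. The gap junction protein Gja1 had the reverse order, at 479 and 504 against 0 and 19 CPM, without passing the test (adjusted p = 0.236). It was read in 45 of 58 and 41 of 55 airway-labelled cells and in 1 of the 52 vascular cells.

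Matrix genes were called on both sides. Eln, elastin, was at 789.9 and 801 CPM against 4262 and 5343 CPM (log2 -2.57, SE 0.422, adjusted p = 0.036), the single call among 21 elastic fibre genes. Of these 7 did not overlap towards the airway and 6 towards the vascular side, against 21.5% and 13.8% of all genes. Among 40 basement membrane and proteoglycan genes 6 were called higher in vascular cells and 1 in airway-labelled cells. That is 17.5% of the list, against 7.63% of the 15 lists together. The list as a whole was nearly balanced, with a median of -0.17. In it 12 genes did not overlap towards the airway and 13 towards the vascular side, against 21.5% and 13.8% of all genes. The calls include matrix proteins outside the basement membrane such as Postn and Sparc. Postn, periostin, was at 0.218 and 6.03 against 1962 and 2113 CPM (log2 -9.57, SE 1.41, adjusted p = 0.0233), a call that held in all 14 alternatives. Npnt, nephronectin, was at 1.79 and 2.22 against 141 and 225 CPM (log2 -6.51, SE 0.475, adjusted p = 0.0016), and the laminin chain Lamb1 at 20.2 and 6.19 against 310.1 and 169.7 CPM (adjusted p = 0.0226). Tinagl1 was at 0.0794 and 0.0232 against 274 and 154 CPM (adjusted p = 0.0117) and Sparc at 3757 and 3679.8 against 7378 and 9176 CPM (adjusted p = 0.036). Sparc was called in 8 of the 12 alternatives that keep both mice. Nid2, nidogen 2, was at 0 against 10.8 and 7.02 CPM (adjusted p = 0.0102) but rested on 2 and 1 cells.

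On the airway-labelled side Spon2, the secreted protein spondin 2, was at 2929.6 and 3709.9 against 692 and 865 CPM (log2 2.09, SE 0.282, adjusted p = 0.0167). Col3a1, the fibrillar collagen III, was the single call among 30 collagens, at 6341 and 7566 against 3057 and 3232 CPM (log2 1.14, SE 0.185, adjusted p = 0.0342). It was called in only 7 of the 12 alternative fits that keep both mice. In the other 3 P21 classes Spon2 lay between 929.9 and 1981 CPM, and Col3a1 reached 17029.8 and 21188 CPM in adventitial fibroblasts. The small proteoglycan Dcn was at 969 and 1335 against 3.46 and 0.0989 CPM without passing the test (adjusted p = 0.163). The chains of collagen IV had the reverse order without a call, Col4a1 at 165 and 110.2 against 524 and 286 CPM (adjusted p = 0.161) and Col4a2 at 138 and 113 against 399 and 370.0 CPM (adjusted p = 0.0706).

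Integrins gave 3 calls among 19 tested genes, all towards the vascular class. That is 15.8% of the list, against 7.63% of the 15 lists together and 0.803% of all genes. Among the integrins 4 genes did not overlap towards the airway and 8 towards the vascular side, against 21.5% and 13.8% of all genes. The collagen and laminin receptor subunit Itga1 was at 31.7 and 18.2 against 585 and 331 CPM (log2 -4.20, SE 0.534, adjusted p = 0.0121). The laminin receptor subunit Itga7 was at 0 and 0.0232 against 45 and 54.5 CPM (adjusted p = 0.0427), and Itga4, which binds fibronectin and Vcam1, at 0.0198 and 0.0927 against 123 and 33.7 CPM (adjusted p = 0.0233). Guidance and neurotrophic genes gave 1 call on each side among 43: the Slit receptor Robo2 at 44.9 and 129 against 0.0433 and 0 CPM (adjusted p = 0.0111), and Nrp1, the co-receptor of semaphorins and VEGF, at 117 and 90.3 against 848 and 656 CPM (log2 -2.86, adjusted p = 0.0162). This list had the largest median difference of the 15, 2.65. In it 19 genes did not overlap towards the airway side and 8 towards the vascular, against 21.5% and 13.8% of all genes. Sema3c, a secreted semaphorin, was at 414 and 309 against 5.54 and 17.5 CPM (adjusted p = 0.192).

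Among 26 immediate early and dissociation genes the heat shock gene Hspa1a was the single call, at 359 and 303 against 2161 and 1781 CPM (log2 -2.57, adjusted p = 0.0194), and is uncertain because of its near-identical copy Hspa1b. For 15 of the 26 both airway values exceeded both vascular ones, against 21.5% of all genes, with a list median of 0.94. Fos was at 13799 and 10438 against 5776 and 6200.2 CPM (adjusted p = 0.472), and Btg2 at 9855 and 10839 against 2086 and 3533 CPM (adjusted p = 0.264). These genes answer to tissue handling as well as to signals in the animal, and their part in other differences was not tested.

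The 12 called genes with the largest fitted difference towards the airway side were Hhip, C3, Sulf1, 1500015O10Rik, Penk, Fgf10, Armh4, Pamr1, Polr3d, Mettl24, Emp1 and Mmp3. All had 0 or 1 read in the vascular libraries, so their order rests on the floor. Pamr1, a secreted protein with a peptidase-like domain, was at 832 and 631 against 0 and 0.0494 CPM (adjusted p = 0.00158), was read in 39 of 58 and 40 of 55 airway-labelled cells, and was called in all 14 alternatives. Sulf1, an enzyme that trims sulfate from heparan sulfate, was at 162 and 117 against 0 CPM, at least 2036-fold higher (adjusted p = 0.00925), in 26 and 22 cells. The complement component C3 was at 189 and 146 against 0 CPM, at least 2444-fold higher (adjusted p = 0.00161), in 8 and 10 cells, and Penk, the enkephalin precursor, at 164 and 44 against 0 CPM (adjusted p = 0.0111), in 15 and 5. C3 stood at 1353 and 1499 CPM and Penk at 208 and 237 CPM in adventitial fibroblasts. Mmp3, the metalloproteinase stromelysin, was uneven, at 34.4 CPM in the female and 675 in the male (adjusted p = 0.0194). The remaining 5 lay between 24.2 and 171 CPM in the airway libraries. A pair of called genes with reads in both classes was picked after the values were seen: Enpp2, the enzyme autotaxin that makes lysophosphatidic acid, at 3944 and 3955 against 57.2 and 55.3 CPM (log2 6.14, SE 0.428, adjusted p = 0.00158), and Fmo2, a flavin monooxygenase of lung, at 1442 and 2279.7 against 85 and 142 CPM (log2 4.04, SE 0.403, adjusted p = 0.00528).

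The 12 with the largest fitted difference towards the vascular side were Steap4, Slc11a1, Esam, Prss23, Gja4, Vtn, Higd1b, Inpp4b, Ifi47, Sh2d3c, Fam110a and Wisp1, with 0 or 1 read in the airway libraries. Prss23, a secreted serine protease, was at 992 and 2146 CPM and was read in 28 of 33 and 16 of 19 vascular cells (adjusted p = 0.0232). Pericytes held only 0.0178 and 5.38 CPM of it. Esam, an adhesion molecule of vessel cells, was at 243 and 229 CPM (adjusted p = 0.00694), at least 7379-fold higher than in airway-labelled cells, and Slc11a1, a metal ion transporter, at 223 and 445 CPM (adjusted p = 0.0261), in 17 and 7 cells. Vtn, vitronectin, at 114 and 233 CPM, and Higd1b, at 165 and 155 CPM, stood in pericytes at 585 and 675 CPM and at 797 and 1208 CPM. Steap4, a metalloreductase at 145 and 798 CPM (adjusted p = 0.00716), rested on 1 female and 2 male cells. Of the 74 vascular calls 19 rested on 3 or fewer cells in a mouse and 7 of these on 1 cell; of the 42 airway calls these counts were 2 and 0. The vascular libraries held less than 0.5 times the reads of the airway library of their mouse, and the part of this in the genes at 0 was not tested.

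**Figure D3:**
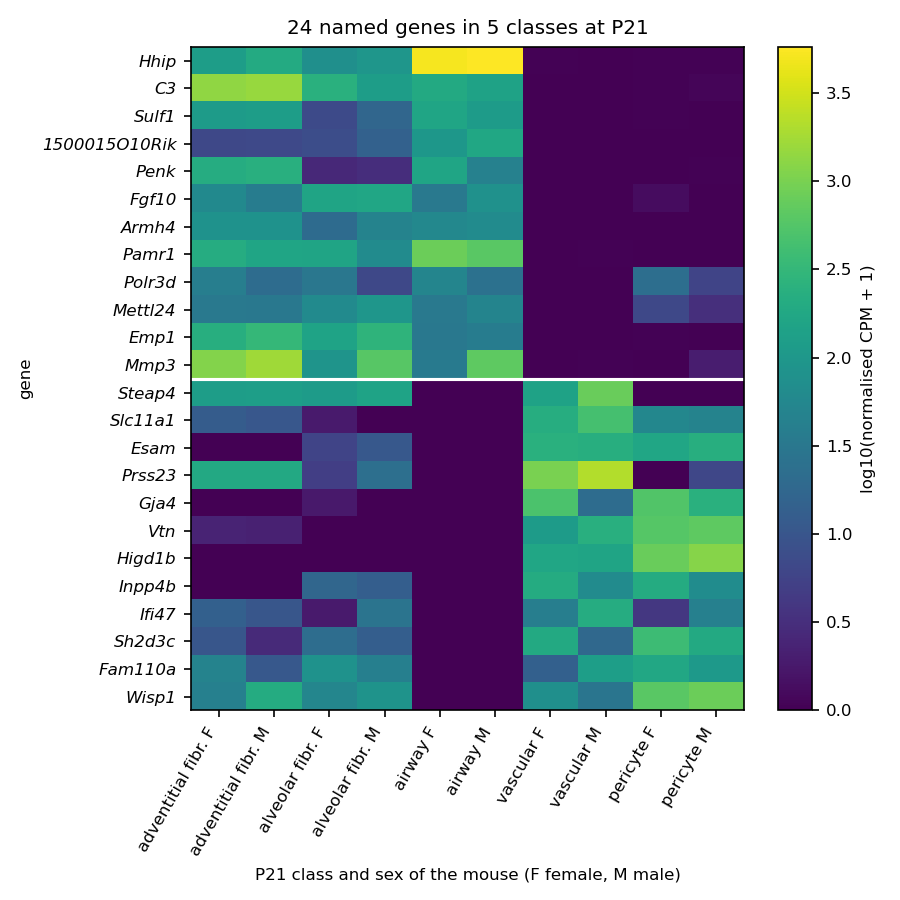
The 24 genes named by the largest fitted difference (vertical axis; 12 towards airway above the white line, 12 towards vascular below it) in the 2 mice of 5 P21 classes (horizontal axis), coloured by log10 of normalised CPM plus 1. Most airway genes also have reads in fibroblasts and most vascular genes also have reads in pericytes; Hhip is brightest in the airway-labelled libraries, at 5094 and 5758 CPM.

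Set beside the other P21 classes, the called genes were seldom limited to their own class. Of the 42 airway calls 41 reached at least 10 CPM in both adventitial fibroblast libraries (97.6%) and 34 in both alveolar fibroblast libraries (81.0%), against 49.4% and 46.1% of all genes tested, while 16 did so in both pericyte libraries (38.1%, against 44.5%). Of the 74 vascular calls 60 did so in both pericyte libraries (81.1%), 46 in alveolar (62.2%) and 43 in adventitial fibroblasts (58.1%). The reads of those classes entered the same fit. In their own class 41 of the 42 airway and 72 of the 74 vascular calls reached 10 CPM in both libraries. All genes tested are thus not a background matched for level, and an excess over them is no test.

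At P7 the same contrast, between cells labelled early airway smooth muscle and vascular smooth muscle, was tested in a fit over 16 libraries of 8 mice, which included P1 and hyperoxia mice to estimate the spread. It called 63 of 14208 genes (0.443%). Of the 42 airway calls at P21 36 had the same sign at P7 and 4 were also called there. Of the 74 vascular calls 70 had the same sign and 14 were called. The share of all genes with the same sign at both ages was not computed, so the sign counts stand without a background. CPM in this and the next 2 paragraphs come from the scaling of that fit and differ slightly from those above.

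Among the contractile genes only Acta2 passed the test for a changed class difference between the ages. Fitted changes were larger for others that did not pass, among them Cnn1 (-5.65), Actg2 (-3.71), Myh11 (-2.96) and Mylk (-2.32). Acta2 was at 8635 and 10984 CPM in early airway and 20453 and 18053 CPM in vascular cells at P7. At P21 it was at 1688 and 2389 CPM against 15968 and 22363 CPM. The vascular values at both ages overlapped, and the airway-labelled values at P21 were below both at P7. The difference between classes moved from -0.98 (SE 0.226) to -3.23 (SE 0.243), a change of -2.25 (SE 0.319, adjusted p = 0.0442). Leaving out 1 of the 4 mice gave changes of -2.40 to -1.965, with adjusted p from 0.0573 to 0.468. The call was also lost without the hyperoxia mice (adjusted p = 0.129) and with RLE size factors (0.0523). Actg2 was at 2848 and 3872 CPM in early airway and at 289 and 176 CPM in airway-labelled cells at P21 (change of the class difference -3.71, adjusted p = 0.129), and Cnn1 at 1415 and 1826 and at 28.1 and 39.9 CPM (adjusted p = 0.11). Of 32 contractile genes 25 were lower in both airway libraries at P21 than in both at P7, where 23.6% of all 14208 genes were. In vascular cells 5 of 32 were, against 18.1% of all genes. The change was negative for 30 of 32, with a median of -1.27 against -0.02 over all genes, and 1, Acta2, was called. In single cells Acta2 was read in 75 of 75 and 64 of 64 and Actg2 in 74 of 75 and 63 of 64 early airway cells at P7. At P21 Actg2 was read in 19 of 58 and 18 of 55 airway-labelled cells.

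**Figure D4:**
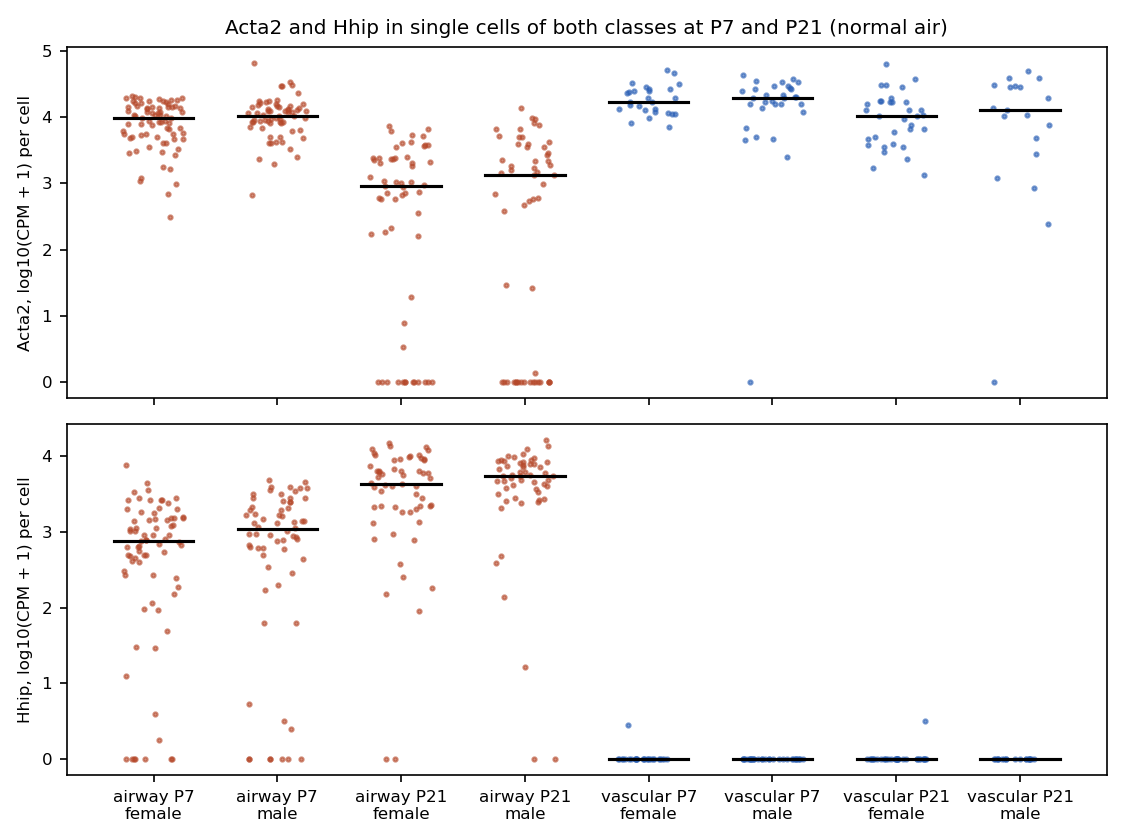
Acta2 (upper panel) and Hhip (lower panel) in single cells, as log10 of total-read CPM plus 1 (vertical axis), by class, age and mouse (horizontal axis); red cells carry an airway and blue cells a vascular label, and black bars are medians. Of the airway-labelled cells at P21 13 and 17 have no read of Acta2 and at P7 none, while Hhip medians are 752.5 and 1085 at P7 and 4339 and 5427 total-read CPM at P21.

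The P21 minus P7 test called 11 genes in all (0.0774% of 14208), 6 with a change towards the airway side and 5 towards the vascular side. The glycoprotein Postn had been at 1552 and 1084 CPM in early airway cells at P7 and was at 0.257 and 6.95 CPM at P21, while vascular cells held 1782 and 1933 and then 2310.4 and 2464 CPM. The change of its class difference was -10.10 (SE 1.30, adjusted p = 0.0341). The signalling protein Wisp1, from 94.1 and 82.7 CPM to 0 in both airway libraries, and the Wnt modulator Sfrp2, from 70 and 84.6 CPM to 0.0467 and 0, had changes of -11.75 (adjusted p = 0.0433) and -9.49 (adjusted p = 0.0132). Both were also lower in vascular cells at P21. Wisp1 went there from 362 and 443 to 86 and 32.9 CPM, and Sfrp2 from 273 and 283 to 138 and 6.34 CPM. Ltbp2, a microfibril protein, was at 1527 and 1254 and then 107 and 115 CPM in the airway libraries, and at 1020 and 703 and then 570 and 836 CPM in the vascular ones (change -3.35, adjusted p = 0.0341).

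Towards the airway side the secreted chaperone Clu was at 52.6 and 60.3 CPM in early airway cells at P7 and at 584 and 856 CPM at P21, while vascular cells went from 384 and 470 to 184 and 151 CPM. Its class difference changed sign, from -2.92 (SE 0.382) to 2.09 (SE 0.373), a change of 5.00 (SE 0.533, adjusted p = 0.0174). Mgp, the calcification inhibitor matrix Gla protein, also changed sign, with a change of 4.34 (SE 0.501, adjusted p = 0.0202). It was at 324 and 278 CPM at P7 and 9368 and 22040.5 CPM at P21 in the airway libraries. In the vascular ones Mgp was at 1989 and 1513 and then 4697 and 3585 CPM. The lipoprotein Apoe, picked after its values were seen, was at 164 and 129 and then 2187 and 1977 CPM in the airway libraries (change 3.15, adjusted p = 0.0433). Vascular cells held 2047 and 1132 and then 1892 and 3186 CPM of Apoe. Pamr1 changed through the vascular class, from 27.6 and 67.4 CPM to 0 and 0.0577 CPM (change 10.58, adjusted p = 0.0174). Clca3a2, a chloride channel regulator with near-identical copies, was at 518 and 1077 CPM in vascular cells at P7 and at 0 and 0.0577 CPM at P21 (change 20.20, adjusted p = 0.0261). The complement protease C1s1 went from 0 and 0 to 27.9 and 19.3 CPM in the airway libraries. In the vascular ones it went from 146 and 64.3 to 377 and 239.7 CPM (change 11.12, adjusted p = 0.0433). Without either P7 mouse no gene was called by edgeR, with 539 and 636 genes at an unadjusted p under 0.05.

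**Figure D5:**
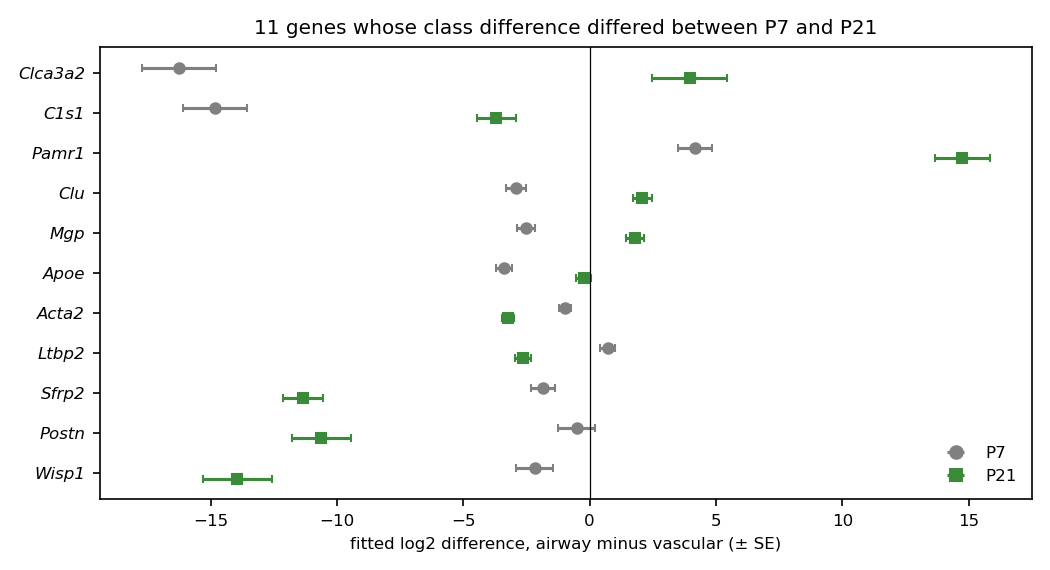
Fitted log2 difference, airway minus vascular, with its standard error (horizontal axis), at P7 (grey circles) and at P21 (green squares) for the 11 genes whose difference changed between the ages (vertical axis). Clu and Mgp cross 0 from the vascular to the airway side, and Acta2 moves from -0.98 to -3.23.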

How the data were processed

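Single cells of mouse lung had been sequenced on plates, and the deposited table held whole-number read counts, for 18072 genes in 5480 cells. The authors' tools were STAR 2.5.2b and HTSeq 0.10, per the submitters' processing notes, which name the human build GRCh38 for these mouse samples; how shared reads were counted is not given in the sources used here. The table held 0 mitochondrial genes. No molecular identifiers are named, so counts are reads, not molecules.

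Class, mouse, sex and age came from the labels. Counts were summed per mouse and class. The test was edgeR's two-sided quasi-likelihood test (edgeR 4.0.16, R 4.3.3) after filterByExpr and TMM scaling, with Benjamini-Hochberg adjustment and a threshold of 0.05. The P21 fit held 10 libraries of 5 classes with at least 10 cells each and the mouse as a block, which left 4 residual degrees of freedom; the fit over ages held 16 libraries. Pairing by mouse comes from the design, since both classes come from 1 animal. Deviations of the 2 classes correlated at 0.0221 across genes. Named genes had an adjusted p under 0.05, at least 10 CPM in a class and the same direction in both mice, the 12 largest differences on each side (4 for the change between ages), with members of the 15 lists and the marker lists. Members and lists were chosen with earlier results of these data known. A fold against 0 was set against 3 reads over the class. Such folds and the counting intervals of ratios treat reads as independent draws and do not cover the spread between cells or mice. Values of single cells were scaled by their total reads. Promoters came from RefSeq (GRCm38.p6) by symbol. Alternatives were other library sets, RLE and no scaling factors, no filter, no block, DESeq2 1.42.0, limma 3.58.1 on log2 of the mean CPM over cells (pseudocount 1), other cell filters and leaving out each mouse. Scripts were tested on simulated data. No doublet caller was run. The 2 mice per age measure only the spread between these mice, and sex cannot be told apart from it.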

Additional observations from a re-analysis of the deposited data

Results flagged for a closer look

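The difference between the airway and vascular classes differed between P7 and P21 for 11 genes by edgeR's test of the interaction, adjusted over 14208 genes. Its change, P21 minus P7, was -11.75 for Wisp1, -10.10 for Postn, -9.49 for Sfrp2, -3.35 for Ltbp2 and -2.25 for Acta2, and 3.15 for Apoe, 4.34 for Mgp, 5.00 for Clu, 10.58 for Pamr1, 11.12 for C1s1 and 20.20 for Clca3a2. The values of Wisp1, Sfrp2, Pamr1, C1s1 and Clca3a2 include libraries at 0, so their size depends on the fit. Groups of 2 mice are too small for a test of outlying samples.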

How the results depend on the processing

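At P21, 116 genes were called. The count was 98 with only the 4 libraries compared and mouse as a replicate block, 71 in 6 libraries without fibroblasts (chosen after seeing the data), 118 in the fit over 16 libraries, 135 with no replicate block, 1887 with DESeq2 (114 of the 116 among them) and 406 with cells weighted equally in limma. It ranged from 33 to 201 when a mouse was left out. With airway cells limited to those with Hhip reads and vascular cells to those without, also chosen after seeing the data, it was 139. Of 58 genes named or called within the lists, 35 kept the call with only the 4 libraries and 34 without fibroblasts. The contractile count of 4, followed over the alternatives after seeing the data, became 11 in the fit over 16 libraries, 13 with DESeq2 and 9 with cells weighted equally, and 1 to 8 with a mouse left out. At P7, 63 genes became 142 without a filter, 1148 with DESeq2, 123 with no replicate block and 2 to 6 with a mouse left out. For the change from P7 to P21, 11 became 6 without the hyperoxia mice, 23 without a filter, 658 with DESeq2, 27 with no replicate block and 0 to 54 with a mouse left out. The share of calls towards the airway side was 36.2% in the main P21 fit and 57.1% with DESeq2. The cause of these shifts was not tested.

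No followed gene changed sign. Of 58 genes named or called within the lists at P21, 19 were called in all 12 alternatives that keep both mice, and 7 (Acta2, Esam, Gucy1a1, Pamr1, Postn, Sh2d3c and Slc11a1) also without either mouse. Of the 58, 20 kept the call without the female and 10 without the male. Of the 12 alternatives that keep both mice, Col3a1 and Gdf10 were called in the fewest, 7. Flna, Gucy1b1, Sparc and Wif1 were called in 8. The vascular libraries hold 33 and 19 cells and fewer reads than the airway ones, and which of these limits the genes read in few cells was not tested.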

Other observations

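The same classes had also been sampled at P1, in another female and another male, and their values stand beside those of P7 and P21 on the scale of the fit over 16 libraries. Acta2 was at 11469 and 12254 CPM in early airway and at 18588 and 10113.5 CPM in vascular cells at P1, a class difference of -0.21 (SE 0.226, adjusted p = 0.905 by edgeR). Clca3a2 was at 0 in both early airway libraries and at 505 and 1182 CPM in the vascular ones (adjusted p = 0.0059). Pamr1 was at 458 and 644 CPM against 1.87 and 1.29 CPM (log2 8.44, SE 0.814, adjusted p = 0.00322), and Apoe at 218 and 226 against 1335 and 1100.2 CPM (log2 -2.45, SE 0.319, adjusted p = 0.00882). A difference between P1 and the later ages was not tested.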
